A study of Mus musculus with 2 samples.

Results

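The genes described here encode negative feedback regulators of mitogen-activated protein (MAP) kinase signalling, which are the dual-specificity phosphatases Dusp1, Dusp4, Dusp5, Dusp6, Dusp10 and Dusp14 and the Sprouty-type inhibitors Spry1, Spry2, Spry4 and Spred1. Their spots were matched by gene name alone, as the non-control spots whose name on both arrays equalled one of these 10 names. The 10 names themselves were chosen with earlier results of these data known. Of the 10 names, 9 were found among the 28080 distinct gene names of the array, and no spot carried the name Dusp5. The 9 genes were covered by 15 probes of 41141, each printed as 1 spot. NIH3T3 cells, an immortalized mouse fibroblast line, were grown in medium with 10% serum on 4 plates and were either left untreated (control) or given 10 µM thapsigargin for 3 h. Thapsigargin blocks the calcium pump of the endoplasmic reticulum (ER) and thereby causes ER stress, and the cells of both groups share the line, the serum and the cycloheximide that was added shortly before lysis to hold ribosomes on the mRNA. Lysates were run on a sucrose gradient from 10 to 40%, and the RNA was collected as a polysome fraction (P, labelled with Cy3) and a combined fraction of free RNA and monosomes (FM, labelled with Cy5). Each condition is 1 array that received RNA pooled from 3 preparations, with 300 ng of RNA labelled in all, so no difference between the conditions has a replicate check and no test was made. One immortalized line in serum is also a limit on what these cells stand for.

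Growth factor receptors activate Ras, Raf, MEK and ERK in turn, and active ERK induces genes that switch the cascade off again. Dual-specificity phosphatases do so by removing phosphate from both the threonine and the tyrosine of the activation loop of ERK, JNK or p38, each enzyme with its own preference and place in the cell. Sprouty and Spred proteins act further up, between the receptor and Raf. Many of these regulators turn over quickly, and in fibroblasts they are known as genes induced by serum and growth factors.

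The ratio log2 P/FM served as the measure of translation efficiency, and A, which averages the log2 P and log2 FM signals, as the measure of relative abundance. Probes with A above 4.5 on both arrays were kept, which left 17173 probes, and 13 of the 15 member probes, from 8 genes, were among them. In each channel of each array 42.5 to 46.3% of spots were well above background, and no spot was saturated. Both arrays lay on one slide and carry one scan time. The labelled cell type was borne out by its markers, since Col1a1, Col1a2, Col3a1, Vim, Thy1 and Fn1 each had a probe well above background in all 4 signals, whereas Epcam, Krt18, Ptprc, Pecam1 and Cdh5 had none and Cd68 had 1 probe, with A of 5.60 and 5.71. Over all probes kept, the median log2 P/FM was 0.22 in control and -0.29 with thapsigargin, and the median change was -0.61, with a 5th percentile of -2.53 and a 95th of 1.82. The median change in A was 0.37, made up of 0.07 in the P signal and 0.67 in the FM signal. For the 10 spike-in probes the median ratio, as log2 P/FM, was -0.40 in control and -2.95 with thapsigargin, so that scaling the arrays to the spike-ins raises every change in log2 P/FM by 2.55 and turns each lower value up to that size into a higher one. The nearest substitute for a replicate error is the standard deviation (SD) of the change between different probes of one gene name, with a median of 0.36 for log2 P/FM and 0.19 for A over 4028 names. Between spots of one probe it was 0.10 and 0.12 over 110 probes.

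Most member mRNAs lay closer together in log2 P/FM under stress than in control cells, although the full range was nearly the same. In control cells log2 P/FM ran from -1.55 for the most downstream Spred1 probe to 1.52 for the second Dusp14 probe, a range of 3.07, and with thapsigargin from -1.67 for the first Spry2 probe to 1.26 for Dusp6, a range of 2.92. The SD over the 13 probes was 0.90 in control and 0.65 with thapsigargin, and the middle 50% of them spanned 0.98 and 0.27. Over all probes kept the middle 50% spanned 1.45 in control and 1.39 with thapsigargin. With thapsigargin 11 of the 13 probes lay between 0.03 and 0.72, a window chosen after the values were seen, and 2 lay outside it, Dusp6 above and the first Spry2 probe below. Of all probes, 24.6% lay between 0 and 0.75 with thapsigargin. The narrower span of the middle 50% under stress was seen in every alternative processing, with spans of 0.31 to 1.51 in control and of 0.10 to 0.36 with thapsigargin. Centring and spike-in scaling shift all ratios of an array alike and so cannot alter a span. The filters, the accession unit and the deposited ratios reuse the same spot values, so their spans are not separate checks. With normexp correction the members spanned 0.31 in control and 0.22 with thapsigargin, against 0.12 and 0.35 over all probes. Over the 11 probes with all 4 signals well above background the spans were 1.33 and 0.27. The 13 probes belong to 8 genes and are not independent of one another.

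**Figure D1:**
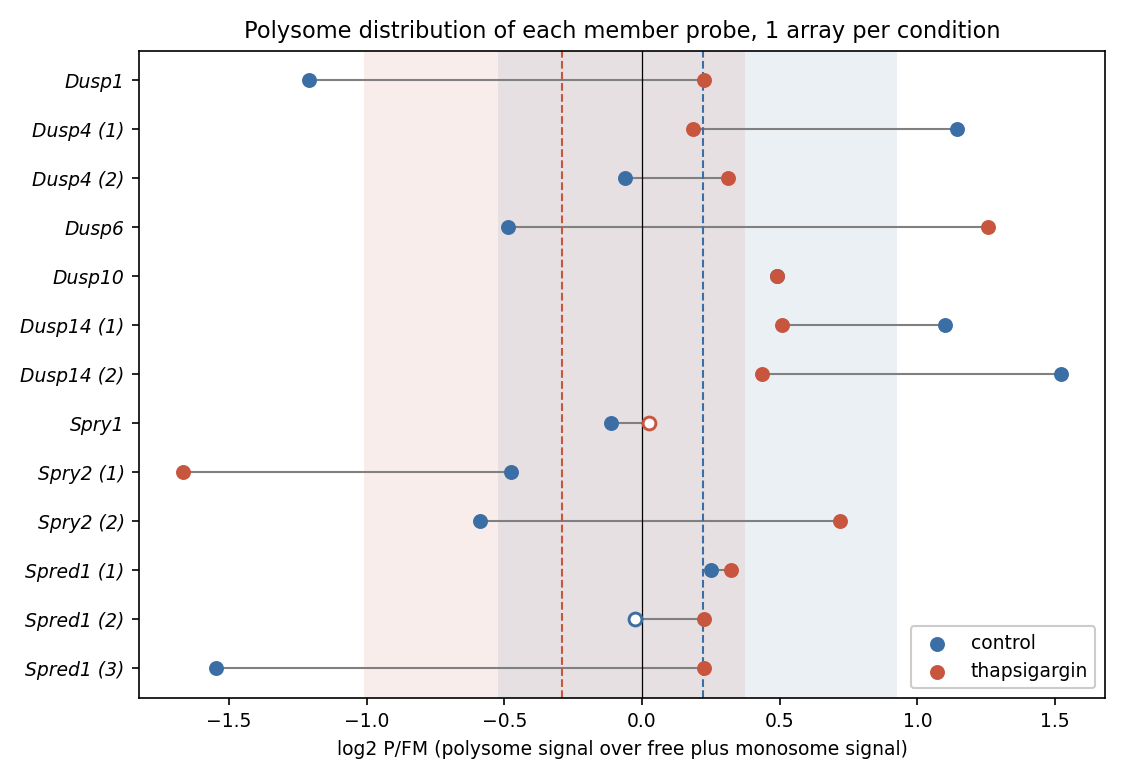
The horizontal axis gives log2 P/FM and each row is 1 probe of a member gene, with the control value in blue and the thapsigargin value in red. Dashed lines and shaded bands are the median and the middle 50% of all 17173 probes kept in each condition, and open circles mark a ratio with a signal not well above background. The blue points run from -1.55 to 1.52, whereas 11 of the 13 red points lie between 0.03 and 0.72.

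The median log2 P/FM of the 13 probes was -0.06 in control and 0.31 with thapsigargin, while that of all probes was lower under stress. The number of probes at or above 0 went from 5 to 12 of 13, while 57.9% of all probes were above 0 in control and 38.8% with thapsigargin. The median change was 0.14, against -0.61 for all probes and -0.14 for the median of the GC and brightness classes the members fall in, and 10 of the 13 changes lay above the median of all probes. These counts and medians take every probe that passed the filter at its measured value, also the second Spred1 probe and Spry1, whose signals were not all well above background. Over the other 11 probes, 5 were at or above 0 in control and 10 with thapsigargin, the median change was 0.07, and 8 changes lay above the median of all probes. The gap of 0.75 between the medians of members and of all probes was 0.40 with loess, 0.25 with no background subtraction and 0.21 with normexp background correction. The last 2 of these let all 41141 probes pass the filter, with 15 member probes, both of Spry4 among them. Those gaps thus differ from 0.75 in the set of probes as well as in the background step. By the classes that the study defines, 3 of the 13 probes were sensitive (log2 P/FM lower by 0.8 or more) beside 44.4% of all probes, and none was resistant (0.8 or more on both arrays) beside 3.32%. A further 4 were inducible (at or below 0 in control and higher by 1 or more) beside 12.7% of all probes. The sensitive probes were the first of Dusp4, the second of Dusp14 and the first of Spry2. The inducible ones were those of Dusp1 and Dusp6, the second of Spry2 and the third of Spred1. None of the 3 sensitive calls was left under spike-in scaling, under centring of each array on its median or with normexp background correction. The first 2 of these raise the change of every probe alike, and the median change of all probes was then 1.94 and -0.10. With normexp it was 0.39. The loss of these calls is thus not particular to the members, and the shares of all probes called under these settings are not given.

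Dusp6, the cytoplasmic phosphatase that acts on ERK, had a higher polysome signal and a lower FM signal under stress. Its probe lies at chr10:98729985-98730044 (mm9, plus strand) and is shown here by its first 30 of 60 bases because the shift was read from it alone.
Dusp6: catttggtggatgcaacaggttgagaggaa
The P signal was 1233 in control and 2220 with thapsigargin, and the FM signal was 1729 in control and 930 with thapsigargin. The P signal was thus 1.80-fold higher and the FM signal 1.86-fold lower under stress, so that the fractions traded places. The share of the summed signal in polysomes went from 41.6 to 70.5%, and log2 P/FM from -0.49 to 1.26. The change of 1.74 exceeded that of 94.4% of all probes and was well beyond the SD between probes of one gene name at this brightness (0.23). It lay between 1.69 and 4.29 under the 13 alternatives. Of these, the filters, the accession unit and the deposited ratios leave the change of a single probe as it was, here and below. A, at 10.51 in control and 10.49 with thapsigargin, changed by -0.02, which is 0.40 below the median of all probes. The change in A was within the spread between probes (0.15) on this scale, but it was -0.42 with processed signals and -0.52 with centring.

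Dusp1, a nuclear phosphatase that acts on p38, JNK and ERK and is a classic immediate early gene, had lower signals in both fractions. Its probe begins with the bases below, which are printed because it carries the one large fall in abundance, and the files give only 11 of its bases a position, chr17:26642526-26642536 (mm9, minus strand).
Dusp1: gcgtatgagagtttttacctttatttattt
The P signal was 364 in control and 227 with thapsigargin, and the FM signal was 841 in control and 194 with thapsigargin. The signal was 1.60-fold lower in P and 4.33-fold lower in FM. A was lower by 1 or more at this probe alone among the 13, beside 1.29% of all probes. The change in A of -1.40 lay below all but 0.489% of all probes, and its range under the 13 alternatives was -1.89 to -1.25. Fewer cells that hold the mRNA and less of it per cell cannot be told apart in RNA from whole cultures. Since the loss was larger in FM, log2 P/FM went from -1.21 to 0.22, a change of 1.43 with a range of 1.19 to 3.98 under the alternatives. The ratio of Dusp1 was thus higher under stress with a lower polysome signal, whereas that of Dusp6 was higher with a higher polysome signal.

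Dusp4, an inducible nuclear phosphatase of ERK and JNK, was covered by a pair of probes 2761 bases apart in the genome. They are shown because they gave opposite changes. The first lies at chr8:35882045-35882104 and the second, listed under an expressed cDNA sequence of its own, at chr8:35884806-35884865 (mm9, plus strand).
Dusp4 (1): aataacggcggtttccgctgccagagaaga
Dusp4 (2): tcaagggacttcagtaagataacaatgcaa
At the first probe the P signal was 629 in control and 712 with thapsigargin, and the FM signal was 285 and 627. The P signal differed little and the FM signal was 2.20-fold higher under stress. At the second probe the P signal was 411 in control and 608 with thapsigargin, and the FM signal was 428 and 489. Here the P signal was 1.48-fold higher and the FM signal 1.14-fold higher. The log2 P/FM went from 1.14 to 0.18 at the first probe, a change of -0.96 that turned to 1.59 under spike-in scaling. It kept its sign under the other alternatives that can change it. It was no longer a sensitive call with centring (-0.45), normexp correction (-0.40), loess (-0.20) and processed signals (-0.12). The ratio went from -0.06 to 0.31 at the second, a change of 0.38 that was positive under every alternative that can change it. It was 1.26 with processed signals and 1.09 with loess, under which it met the inducible rule and the members had 5 inducible probes. The probes disagreed in control by 1.20 and with thapsigargin by 0.13, and no direction is given for Dusp4 as a gene. A was higher under stress at both, by 0.66 and 0.38, against a median of 0.37 over all probes. At the second probe A was lower under stress with normexp correction, with the processed signals and with centring.

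Dusp10, a phosphatase of p38 and JNK, had nearly the same ratio on both arrays as measured. The P signal was 155 in control and 104 with thapsigargin, and the FM signal was 110 and 73.8. Both were 1.49-fold lower under stress, and log2 P/FM was 0.49 in both conditions. The change had no stable sign, since it was 0.27 with processed signals, 0.32 with loess, 0.49 with normexp correction, 0.51 with centring and 2.55 under spike-in scaling. The measured ratio lay above that of 60.1% of all probes in control and of 78.8% with thapsigargin. A was lower by 0.58, a direction kept under every alternative that can change it, and this change lay above only 4.67% of all probes.

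Dusp14, a small dual-specificity phosphatase without the domain that anchors larger family members to MAP kinases, was covered by a pair of probes 677 bases apart on chromosome 11. At the first probe the P signal was 92.3 in control and 150 with thapsigargin, and the FM signal was 43.0 and 105. At the second probe the P signal was 200.1 in control and 336 with thapsigargin, and the FM signal was 69.7 and 248. All 4 differences were in the direction of more signal under stress, by 1.62-fold and 1.68-fold in P and by 2.45-fold and 3.56-fold in FM. The log2 P/FM went from 1.102 to 0.51 and from 1.52 to 0.44, changes of -0.59 and -1.08 that turned positive under spike-in scaling and with normexp correction. A was higher by 0.99 and 1.29, and lower than in control only with normexp correction. The second probe no longer reached 1 with no background subtraction (0.997), processed signals (0.94) and centring (0.79) either. Dusp14 was one of the members with A higher by 1 or more, which held at 2 of the 13 probes, beside 12.7% of all probes. Its signal was thus higher in each fraction, and by the larger factor outside polysomes.

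Sprouty proteins bind Grb2 and Raf and limit signalling from receptor tyrosine kinases. Spry1 was faint, with a P signal of 30.3 in control and 30.7 with thapsigargin and an FM signal of 32.7 and 30.1, the last of these not well above background. The log2 P/FM as measured was -0.11 in control and 0.03 with thapsigargin. The measured change of 0.14 was 0.02 with median spot signals and -0.02 with no background subtraction, so no direction is given for Spry1. A differed by -0.05. At this brightness probes of one gene name had an SD of 0.53 in the change of log2 P/FM.

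Spry2 was covered by a pair of probes 516 bases apart that agreed in control cells and not under stress. They are shown because this was the largest disagreement in the set. The first lies at chr14:106291901-106291960 and the second at chr14:106291385-106291444 (mm9, minus strand), and both are listed under one transcript.
Spry2 (1): ccccccttttaacacatatgcaaccaacta
Spry2 (2): caggaaacctttattgtaagtctctgattt
At the first probe the P signal was 110 in control and 80.1 with thapsigargin, and the FM signal was 153 and 254. At the second probe the P signal was 96.9 in control and 352 with thapsigargin, and the FM signal was 145 and 214. The FM signal was higher under stress at both, by 1.66-fold and 1.47-fold, and the disagreement lay in P, which was 1.38-fold lower at the first probe and 3.64-fold higher at the second. The log2 P/FM went from -0.48 to -1.67 at the first probe and from -0.59 to 0.72 at the second. The change at the first probe was -1.19, which turned to 1.36 under spike-in scaling. The change at the second was 1.31 and positive under every alternative that can change it. The changes differed by 2.50, a difference that 2.56% of 3051 pairs of probes of one gene name reached or exceeded. No direction is therefore given for Spry2 as a gene. A differed by 0.13 at the first probe, where it turned to -0.29 with processed signals, -0.36 with centring and -0.78 with normexp correction. At the second probe A was higher by 1.21, the other member probe with A higher by 1 or more, but by 0.97 with no background subtraction, 0.87 with processed signals and 0.72 with centring, and it changed by -0.040 with normexp correction.

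Spry4 gave no usable signal. Neither of its probes passed the filter, with A of 2.96 and 3.22 in control and 3.29 and 3.26 with thapsigargin, and none of their signals was well above background in either fraction. No ratio is given for them.

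Spred1, which recruits neurofibromin to the membrane to turn off Ras, was covered by 3 probes spread over 10129 bases of chromosome 2. The first lies at chr2:116997721-116997780 and the third, listed under a cDNA sequence of its own, at chr2:117007850-117007909 (mm9, plus strand). These outer probes are shown because the distribution in control cells depended on which probe was read.
Spred1 (1): acagttgttaccagtgaaccttacagaagc
Spred1 (3): ctggctgagagttgtgagtatatcatgtaa
At the first probe the P signal was 46.0 in control and 57.6 with thapsigargin, and the FM signal was 38.6 and 46.0. The second probe was not well above background in either fraction of control cells and gives no change of its own to report, with a P signal of 42.7 and an FM signal of 36.5 under stress. At the third probe the P signal was 88.7 in control and 282 with thapsigargin, and the FM signal was 259 and 241. The log2 P/FM went from 0.25 to 0.32 at the first probe and from -1.55 to 0.23 at the third. The third probe thus had 3.17-fold more polysome signal under stress with an FM signal 1.08-fold lower. Its change of 1.77 exceeded that of 94.6% of all probes and was positive under every alternative that can change it. The change at the first probe was 0.07, within the spread between probes at this brightness (0.44). With thapsigargin the 3 probes lay at 0.32, 0.22 and 0.23, a range no wider than the spread between spots of one probe.

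**Figure D2:**
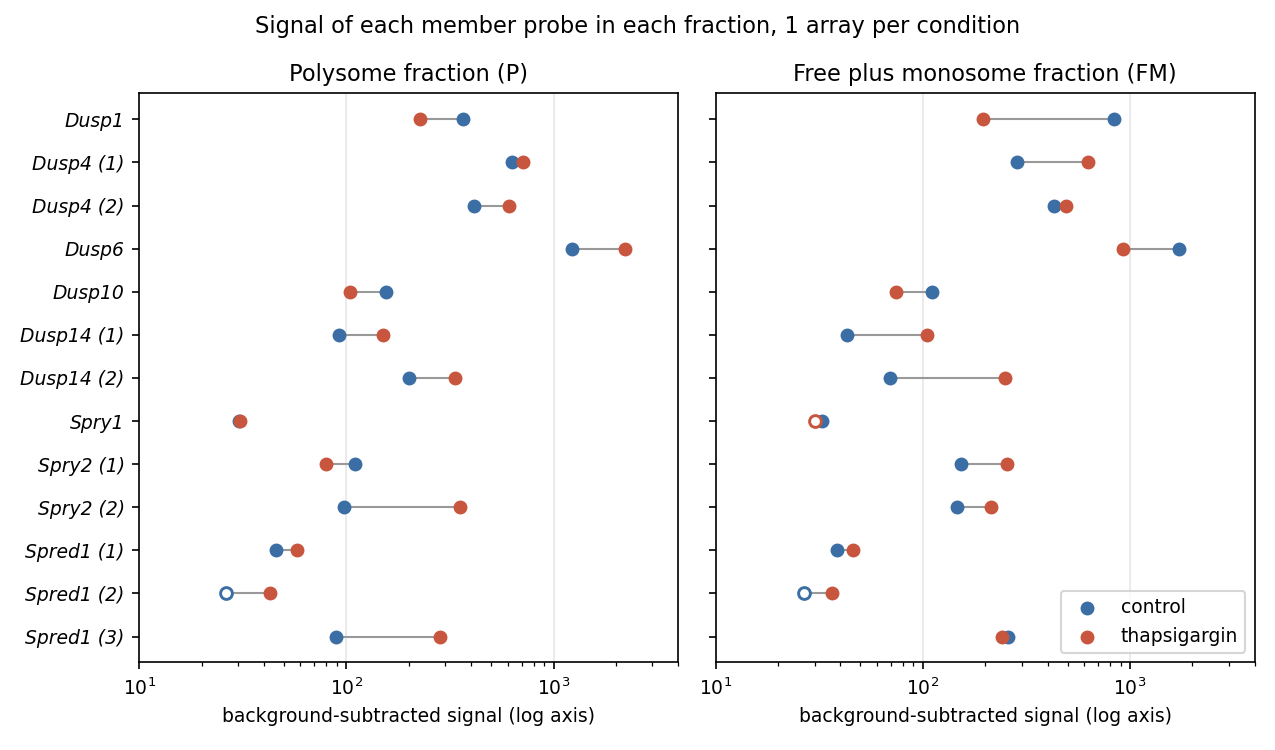
The horizontal axes give the background-subtracted signal on a log scale, in the polysome fraction on the left and the free plus monosome fraction on the right, and each row is 1 probe with control in blue and thapsigargin in red. Open circles are signals not well above background. Dusp1 lies further left under stress in both fractions, Dusp14 further right in both, and Dusp6 moves right in P and left in FM.

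Whether the probes of one gene agree was followed along the genes with more than 1 probe kept. In the direction of transcription, log2 P/FM in control cells was 1.20 lower at the second Dusp4 probe than at the first and 1.80 lower at the third Spred1 probe than at the first. It was 0.42 higher at the second Dusp14 probe and 0.11 lower at the second Spry2 probe. Among 3051 pairs of probes of one gene name, 11.5% differed in control by as much as the Dusp4 pair and 4.10% by as much as the outer Spred1 probes. With thapsigargin the same pairs of Dusp4, Dusp14 and Spred1 differed by 0.13, 0.07 and 0.10, less than the median difference of 0.37 over those pairs. Spry2 ran the other way, and its difference of 2.39 under stress was reached by 1.51% of pairs. Each probe is 1 spot on each array, so a defect of a single spot was not tested. Which exon or untranslated region a probe lies in was not determined.

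**Figure D3:**
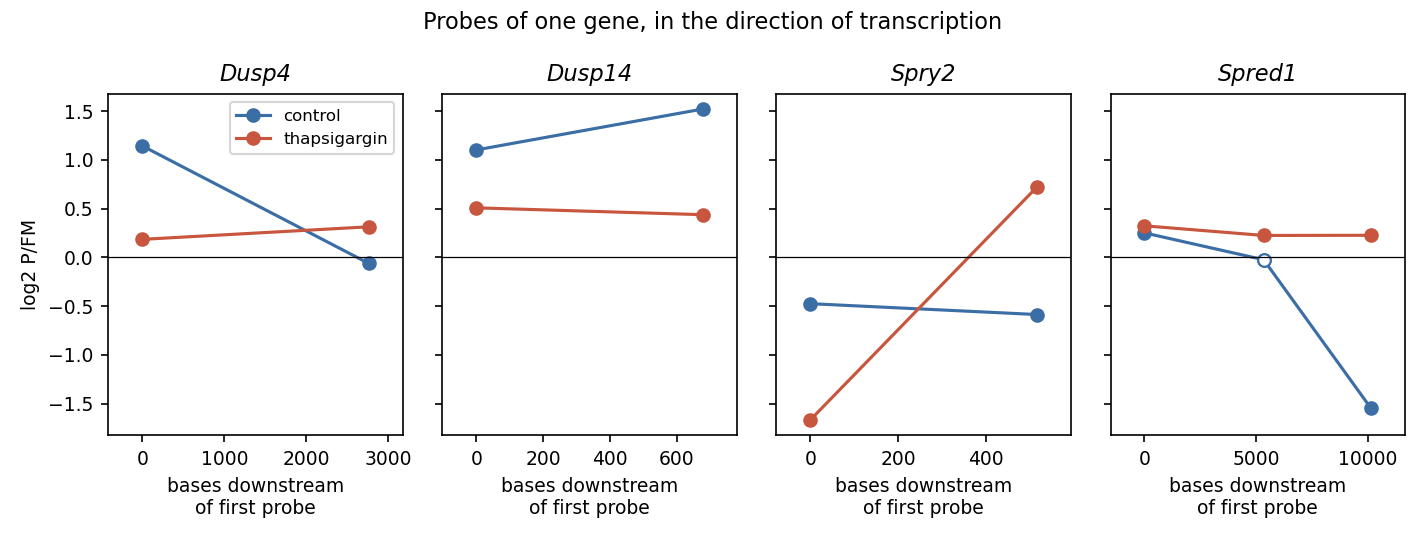
The horizontal axes give the distance in bases downstream of the first probe of each gene and the vertical axis gives log2 P/FM, with control in blue, thapsigargin in red and an open circle where the signals were not well above background. The red lines of Dusp4, Dusp14 and Spred1 are nearly flat while the blue lines of Dusp4 and Spred1 fall, and the lines of Spry2 cross.

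By fraction, the P signal was higher under stress at 10 of the 13 probes, beside 52.5% of all probes. The FM signal was higher at 8 of 13, beside 82.4% of all probes. The median change in P was 0.57 against 0.07 over all probes, and the median change in FM was 0.25 against 0.67. At 9 of 13 probes the change in P lay above the median of all probes, and at 9 of 13 the change in FM lay below it. The median change in A of 0.38 was next to that of all probes (0.37), and 9 of 13 probes were higher, near the share of 75.5% of all probes. The median member thus lay apart from the median of all probes in how the signal was split and beside it in A. Against probes of like GC and brightness, 8 of the 13 changes in log2 P/FM lay above the median. Among single members, Dusp1 lay far below the median of all probes in the change in A. The second Dusp14 and second Spry2 probes were higher by 1 or more, 2 of the 13 beside 12.7% of all probes, which is near that share. Neither reached 1 with normexp correction, no background subtraction, processed signals or centring. Under centring of each array the median change in A was -0.12 for the members and -0.12 for all probes.

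**Figure D4:**
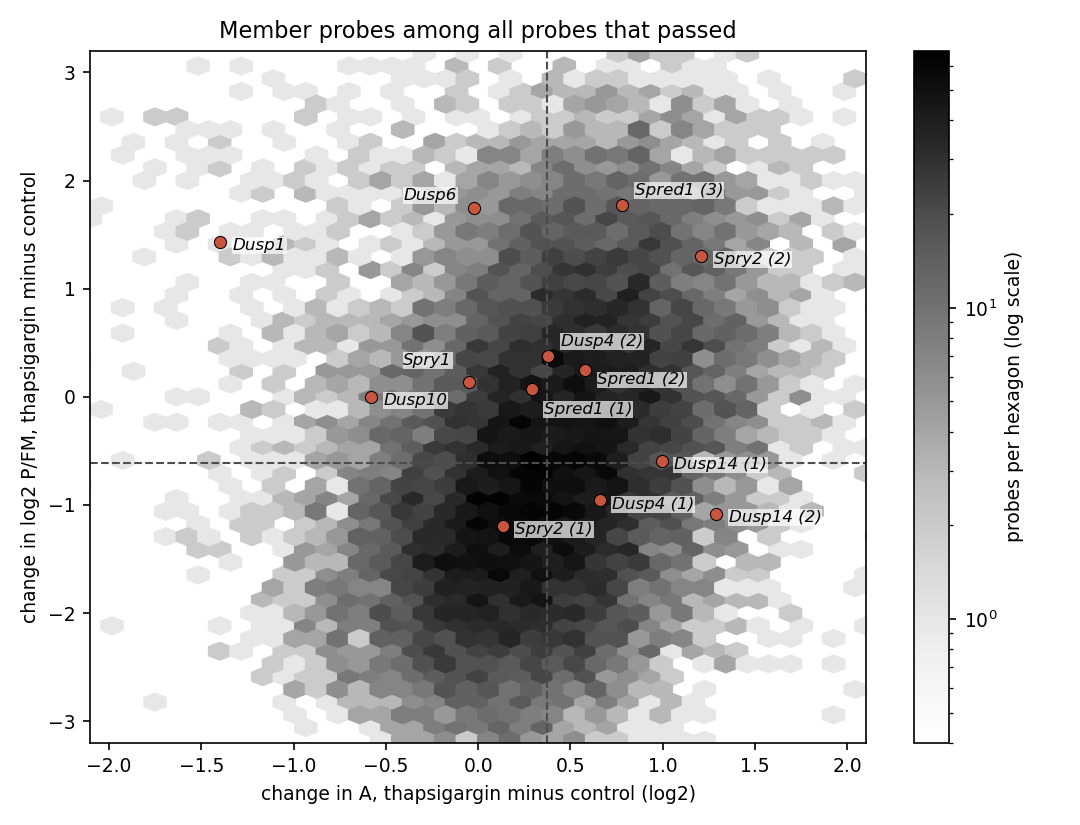
The horizontal axis gives the change in A and the vertical axis the change in log2 P/FM, thapsigargin minus control, with the 17173 probes kept as shaded hexagons (those beyond the axes are not shown), members as labelled points and dashed lines at the medians of 0.37 and -0.61. Dusp1 stands apart at -1.40 and 1.43, and 10 of the 13 members lie above the horizontal dashed line. Under spike-in scaling every point lies 2.55 higher.

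Other genes of the pathway were taken from lists. Of the other MAP kinase phosphatases, 8 probes of 6 genes were kept, with a median change in log2 P/FM of -1.19. Of the 8, 6 (75%, beside 44.4% of all probes) were sensitive and none was inducible, beside 12.7% of all probes. With 8 probes, none at such a share says little. Dusp7, a cytoplasmic phosphatase of ERK and a close relative of Dusp6, went from 0.36 to -0.76, a change of -1.13. Dusp3, a small phosphatase of ERK and JNK, changed by -1.26. Dusp16, a phosphatase of JNK, changed by -0.07 while its A was higher by 1.75. The Dusp9 probes changed by -0.95 and -1.57. Of the other Sprouty and Spred genes, 3 probes of 2 genes were kept. The Spred2 probes changed by 1.01 and -0.85 and so disagreed, as those of Spry2 and the outer ones of Spred1 did. Spry3 had signals not all well above background, and no change is given for it. The median over the 3 measured values was 1.01, but 0.08 both over probes well above background and with median spot signals.

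For the kinases and adaptors of the cascades the median changes lay below that of all probes. In the list from Grb2 and Ras to ERK, 17 of 33 probes of 18 genes (51.5%) were sensitive and 4 (12.1%) inducible, shares near the 44.4% and 12.7% of all probes. The median change was -0.80, and 14 of the 33 changes lay above the median of all probes. Map2k2, one of the MEK kinases, changed by -3.00, Rras, a Ras family GTPase, by -2.51, and Araf, a Raf kinase, by -2.14. The 3 probes of Ptpn11, the phosphatase Shp2, changed by -1.26, -1.71 and -1.35. These genes are named for their brightness, and over all probes the change was lower at brighter probes. In the same list 10 of 33 probes were higher with thapsigargin, among them both probes of Nf1 that were kept, which encodes neurofibromin, by 1.51 and 2.45. Nf1 is named after its values were seen. In the JNK and p38 list, 8 of 17 probes of 13 genes (47.1%) were sensitive, again near the share of all probes, with a median change of -0.76. In that list 1 probe (5.88%) was inducible, beside 12.7% of all probes, and 17 probes are too few to set the list apart by that. The Mapkapk2 probes, for a kinase activated by p38, changed by -2.003 and -1.950, and Mapk14, p38 itself, changed by -0.74. The Map3k4 probes changed by -0.20 and -1.08, and Map2k3 by -1.69. The medians of the phosphatase list and of both kinase lists were above 0 under spike-in scaling and with normexp correction and below 0 under the other alternatives.

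Genes that ERK signalling induces or activates, outside the AP-1 and Egr families, had 12 probes of 10 genes kept, with a median change of 0.22. Of the 12, 4 (33.3%) were inducible, 2 (16.7%) sensitive and 1 resistant. The shares of all probes were 12.7% inducible, 44.4% sensitive and 3.32% resistant. Ier3, an immediate early gene, went from -1.12 to 1.44, a change of 2.56. Phlda1, another such gene, changed by 1.97 and its A was higher by 1.19. Errfi1, which encodes a feedback inhibitor of the EGF receptor, changed by 1.09. The Elk3 probes, for an Ets factor that is a target of ERK, changed by -0.67 and -0.64. The median of this list turned below 0 with A above 5.5 (-0.08), with A above 7 (-0.64) and in the deposited table of log2 ratios (-0.08).

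**Figure D5:**
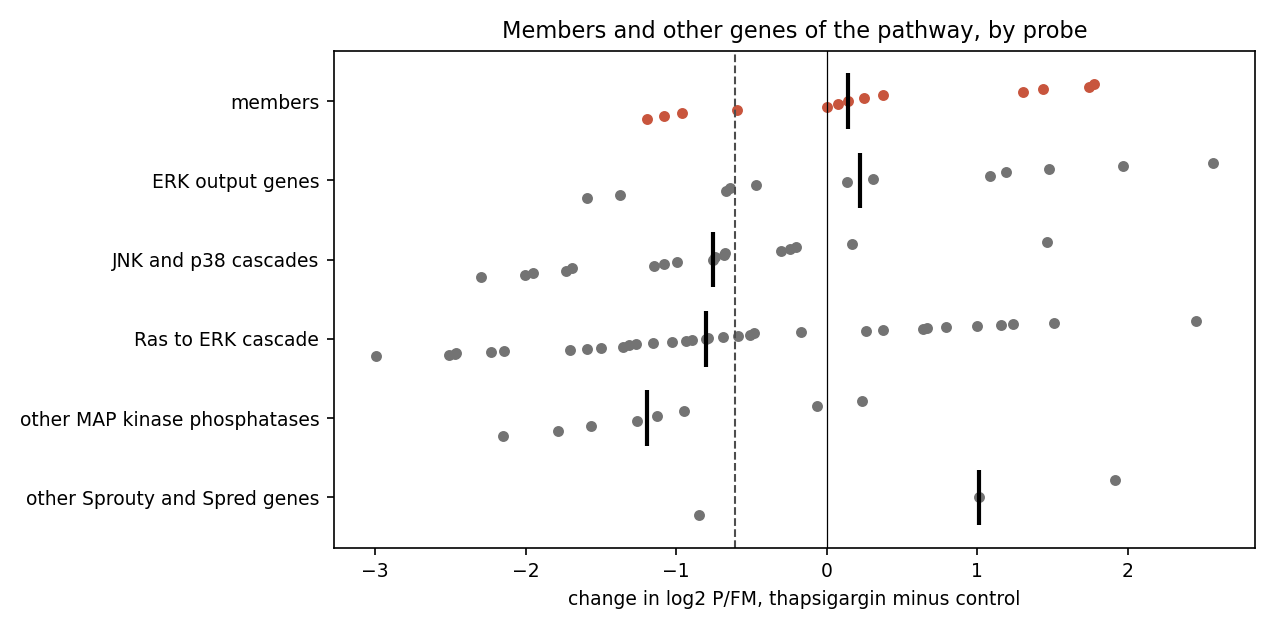
The horizontal axis gives the change in log2 P/FM, thapsigargin minus control, for every probe kept of the members (red) and of each pathway list (grey), with black bars at the medians and the dashed line at the median of all probes, -0.61. The medians are 0.14 for the members, 0.22 for the ERK output genes, -0.76 and -0.80 for the kinase lists, -1.19 for the other phosphatases and 1.01 for the other Sprouty and Spred genes, which rests on 3 probes and is 0.08 over those well above background. Under spike-in scaling every point lies 2.55 higher and every median is above 0.

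Brightness and base composition of the probes moved with the change in log2 P/FM over all probes. The median change went from -0.06 at a probe GC content of 35 to 40% to -1.22 at 55% or more. It was -0.14 at a mean A of 5.5 to 7 and -1.62 at 11 to 13. The member probes had a GC content of 26.7 to 45% with a median of 38.3%, against 43.3% for all probes. Set against probes of the same GC class, 10 of the 13 members were above the median change, and against probes of the same GC and brightness class 8 were. For Dusp6 the median of that class was -1.18, for Dusp1, the second Spry2 probe and the third Spred1 probe it was -0.14, and for Dusp10 it was 0.30. The part of these properties in the members' values was not tested.

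The first 50 bases after the RefSeq transcript start were read for 8 of the members, Dusp5 included, from a table of build GRCm38.p6 that gives 32851 starts. None of the 8 windows held the letters ATG on the sense strand, which 44.3% of all starts did, and their median GC content was 71.0% against 56.0%. None began with a C followed by 4 pyrimidines, as 2.51% of all starts did. The windows are genomic sequence at one annotated start per gene, and whether NIH3T3 cells use these starts was not examined. A window of 50 bases need not reach the end of the 5' untranslated region, so whether an ATG lies further along it was not examined either.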

How the data were processed

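Spot and local background intensity values were deposited by the authors as Feature Extraction 10.7.1.1 output, not normalized, with intensity values it had corrected for background and dye and 0 or 1 spot flags. Per the labels P was Cy3 and FM was Cy5, and per the study labelling preserved the relative RNA content of P and FM. The authors also deposited log2 P/FM ratios by accession, used as an alternative. Here each mean spot signal had its median local background taken off, values under 0.5 were set to 0.5 (limma 3.58.1, R 4.3.3), outlier spots (295, 0.680%) were left out, and spots of one probe were averaged. Members were matched on gene name, and every probe of each was described. Other genes came only from lists, with at most 4 named per list, those of highest mean A. Nf1 was named in addition, after its values were seen. The members and lists were chosen with earlier results of these data known. With 1 array per condition no test was made, and calls are thresholds on the change. Where a probe is described, a signal that was not well above background is named as such or no ratio is given. In counts and medians it enters at its measured value. The steps were tested on simulated data. Positions are those of the deposited files on mm9, and transcript starts are from RefSeq. The sequence of one Spred1 probe is not reported here. Alternatives were normexp correction with offset 50, no background subtraction, median or processed signals, loess, centring, spike-in scaling, A above 5.5, above 7 or no filter, only probes well above background, accessions as the unit and the deposited ratios. The log2 of the summed signal in place of A was added after the data were seen. The filters, the accession unit and the deposited ratios leave the change of a single probe as it was, and loess and spike-in scaling leave its A.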

Additional observations from a re-analysis of the deposited data

How the results depend on the processing

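With 1 array per condition there is no spread between samples, and the number of arrays limits every value. The median change in A over the members turned to -0.78 with normexp correction (-1.84 over all probes) and to -0.12 with centring (-0.12). It was 0.027 with processed signals (-0.033). The median change in log2 P/FM was 0.61 with normexp (0.39 over all probes), 0.65 with centring (-0.10), 2.69 with spike-in scaling (1.94) and 0.90 with A above 7 (-1.01), where 6 member probes were left. Sensitive probes numbered 0 with normexp, centring and spike-in scaling. Resistant probes numbered 4 with spike-in scaling, which raises log2 P/FM on both arrays, and 1 with no filter. The latter was a Spry4 probe without a signal well above background, so no reading is given to it. Inducible probes numbered 2 in the deposited table, which held 8 accessions of members. Probes with A higher by 1 or more numbered 0 with normexp, no background subtraction, processed signals, centring and A above 7, and 1 by accession. Those with A lower by 1 or more numbered 7 with normexp and 2 with processed signals and with centring. With normexp the median change in A over all probes, -1.84, was itself past that threshold, so the 7 are no loss particular to the members. The shares of all probes called under the alternatives are not given here. Under spike-in scaling the changes in log2 P/FM were 1.59 for Dusp4 (1), 1.47 for Dusp14 (2) and 1.36 for Spry2 (1). With normexp, which lifts every probe over the filter, the ratio of Dusp14 (2) changed by 0.26, its A by -0.083 and the A of Spry2 (2) by -0.040. The cause was not tested. Of the other values of single probes, 98 of log2 P/FM and 109 of A moved by less than the SD between probes of one gene name, and 41 and 40 moved by more. The 98 and 109 include values that an alternative leaves as they were, so these counts do not measure stability. Centring moved the change in log2 P/FM of every single probe by more than that SD. With the log2 of the summed signal in place of A, Dusp6 changed by 0.09. No paired analysis was possible because each condition is 1 array.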
